A study of Mus musculus with 6 samples.

Results

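The genes of the constitutive proteasome were compared between mesenchymal stem cells (MSC) and neural crest stem cells (NCSC), both grown from the bone marrow of adult mice. Members were all probe sets annotated to exactly 1 gene whose symbol is Psma, Psmb, Psmc, Psmd, Psme or Psmf followed by a number, except Psmb8, Psmb9 and Psmb10, the interferon-induced subunits of the immunoproteasome. This gave 88 probe sets of 40 genes, out of 34945 probe sets of 18194 genes on the array. Of the 40 genes, 38 had a probe set above background and were tested. The other two, Psma8 and Psmb11, variants known from testis and thymus, lay at the lowest values of the array in both cell types. Psme2 has only a probe set that it shares with Psme2b, so it is not a member.

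There were 3 arrays of MSC and 3 of NCSC. All cells came from female mice aged 10 weeks, of C57BL/6 x SV129 background and wnt1/CRE-R26R-lacZ genotype, so the Cre driven by Wnt1 sequences and the reporter it switches on were carried by both groups. Cells were kept in Mesencult for no fewer than 5 passages and then cloned, without treatment. The labels name biological replicates but no separate animals or clones, so the p-values measure the spread between these arrays. Effects of the clone and of the cell type cannot be told apart here.

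The proteasome is the complex that degrades proteins tagged with ubiquitin. Its core particle is a barrel of outer alpha rings, which gate the entry, and inner beta rings, which hold the proteolytic sites. The regulatory particle caps the barrel: its base carries a ring of ATPases that unfold the substrate, and its lid removes the ubiquitin. The subunits are needed in fixed ratios, and when proteasome capacity falls the transcription factor Nrf1, encoded by Nfe2l1, raises many of their genes together through antioxidant response elements in their promoters.

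That element was searched as the core TGACNNNGC on both strands in the 250 bases before the gene start, in RefSeq promoters of the mouse assembly GRCm38.p6. An entry was found for 32 of the 38 tested genes. The core was present in 5 of the 32 (15.6%), against 13.7% of 8541 other tested genes and 11.5% of all 27025 genes with an entry. The 5 matches are shown because Nrf1 is the known common regulator of these genes. Capitals mark the core in windows with up to 12 flanking bases, printed on the strand of the match.
Psmd9 (chr5:123228147-123228179, plus strand): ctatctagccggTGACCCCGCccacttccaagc
Psmb5 (chr14:54618022-54618054, minus strand): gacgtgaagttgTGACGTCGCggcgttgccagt
Psmb6 (chr11:70525336-70525356, plus strand): gactaaagagagTGACGGAGC
Psmc6 (chr14:45329585-45329617, minus strand): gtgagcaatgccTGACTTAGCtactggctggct
Psmd12 (chr11:107479278-107479301, minus strand): ggggggcaaatgTGACACAGCaga
None of these matches overlapped a match of the CCAAT box, the ETS site or the nuclear respiratory factor site, which were searched too. Of the 5 genes, Psmd9 was called higher in NCSC and the other 4 were not called.

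The cells were checked against marker genes. All 7 neural crest markers on the array were above the background limit, a log2 intensity of 4, on every NCSC array, against 2 of 7 on every MSC array, and their summed intensity was 27688 to 37337 in NCSC and 195 to 250 in MSC. Of 10 mesenchymal markers 7 were above the limit on all arrays of each cell type, with summed intensities of 73130 to 78814 in MSC and 71141 to 79594 in NCSC, while Thy1 and Lepr were below it on all 6. The 7 were not the same genes: Cd248 was above the limit on the MSC arrays alone (8.11 to 8.95) and Nt5e on the NCSC arrays alone (8.23 to 8.66). Vcam1 was at 12.58 to 12.66 in MSC and 8.52 to 8.65 in NCSC, Pdgfra at 9.36 to 10.01 and 6.06 to 6.96, and Eng at 5.15 to 6.14 and 10.15 to 10.38. Of 7 macrophage and blood markers, 2 were above the limit on all NCSC arrays and 1 on all MSC arrays, with summed intensities of 724 to 874 and 141 to 145. Ptprc, Adgre1 and Itgam were below it throughout, and the part of these cells in the differences was not tested. All 6 endothelial and all 4 epithelial markers were below the limit on every array. In such bulk RNA fewer cells of a type and less RNA per cell cannot be told apart.

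Most constitutive proteasome genes differed little between the cell types. Of the 38 genes 18 differed at an adjusted p under 0.05 in limma's test (64.1% of all 10501 tested genes did), 10 of them higher and 8 lower in NCSC (35% and 29.1% of all tested genes). The share of members called, 47.4%, was thus below that of all genes. A single member, Psmd7, changed at least 2-fold (29% of all tested genes were called at that size), and for 34 of the 38 the 95% confidence interval of the difference lay within 2-fold, against 55.3% of all tested genes. The median absolute difference was 0.27 on the log2 scale for the members and 0.55 for all tested genes. Group means of the members ran from 8.76 to 14.76, while array medians of all tested genes were 9.74 to 9.82. These comparisons were not matched for intensity, and its part in them was not tested. Dimmer probe sets of a gene differed more in some cases (Psmc4, Psmc6) and less in others (Psmd7, Psmb3). The signed median was 0.11 for the members and 0.056 for all tested genes, written throughout as NCSC minus MSC.

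The number of calls turned on single arrays. It was 7 without MSC 1, 10 without MSC 3 and 11 without NCSC 1, and 15, 12 and 22 without MSC 2, NCSC 2 and NCSC 3. Leaving out an array refits every gene, and whether the calls of all tested genes changed alike was not tested. MSC 2 was below both other MSC arrays for 26 of the 38 genes (68.4%, against 46.7% of all tested genes). NCSC 3 was above both other NCSC arrays for 20 genes (52.6%, against 38.2%). Psma2, Psma6, Psmc1, Psmc2, Psmd7, Psmd9 and Psmf1 were called in all 17 alternative settings other than the removal of chromosome medians, described further on.

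**Figure D1:**
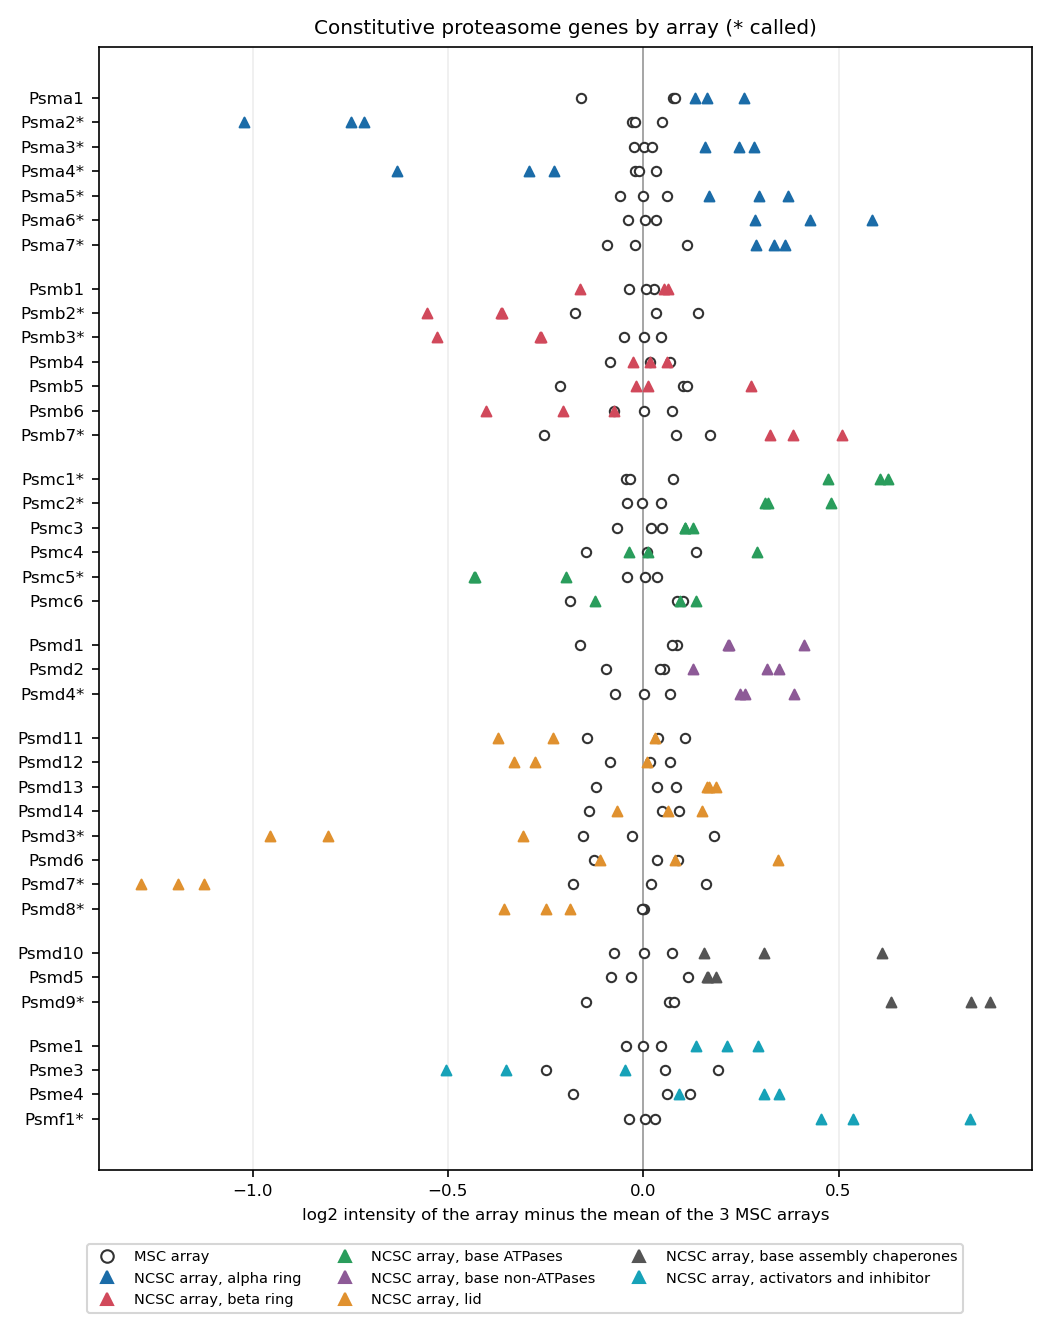
Log2 intensity of each array minus the mean of the 3 MSC arrays, for the 38 tested genes grouped by role. Circles are MSC arrays, triangles NCSC arrays, and an asterisk marks a gene called at an adjusted p under 0.05. Differences run both ways within the alpha ring, the beta ring, the ATPases and the lid, from Psmd7 at the far left to Psmd9 at the far right.

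The alpha ring did not move in one direction. Of its 7 tested genes 4 were called higher and 2 lower in NCSC, and Psma1 was not called. Beside this count and those of the other roles below, 35% of all tested genes were called higher and 29.1% lower. The arrays of the cell types did not overlap for any of the 7 (71.2% of all tested genes did not overlap). Psma2 had the largest difference. Its log2 intensities were 13.93, 14.002 and 13.93 on the MSC arrays and 12.93, 13.21 and 13.24 on the NCSC arrays, so every NCSC array lay well below every MSC array, and the gene fell by 0.83 ± 0.11 (SE, n = 3 a group, limma adjusted p = 0.000785). Psma4 was also lower (-0.38 ± 0.12, adjusted p = 0.0329), a call lost when any array other than NCSC 3 was left out (0.00454 to 0.0959 over all settings).

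Psma6 rose in NCSC. Its intensities were 13.65, 13.69 and 13.72 in MSC and 13.98, 14.28 and 14.12 in NCSC, a difference of 0.43 ± 0.099 (limma adjusted p = 0.00916). A second bright probe set of Psma6 rose by 0.51 ± 0.10, while its 2 dimmer ones differed by 0.20 and -0.02 and were not called. Psma7 (0.33 ± 0.085), Psma5 (0.28 ± 0.088) and Psma3 (0.23 ± 0.075) were higher by smaller amounts, with adjusted p of 0.0153, 0.0315 and 0.0362. The other, far dimmer probe set of Psma3 (5.81 to 5.95 in MSC, 6.20 to 6.79 in NCSC) was called too. It was higher by 0.57 ± 0.16 (limma adjusted p = 0.0224, every probe set tested).

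Both probe sets of Psma7 and of Psma5 were higher in NCSC, but only the brighter of each was called. Adjusted p of a probe set that does not represent its gene come from a limma fit with every kept probe set tested. Psma7 had intensities of 13.49, 13.41 and 13.62 in MSC and 13.79, 13.87 and 13.84 in NCSC. Its other probe set, at 12.93, 12.73 and 13.04 against 13.08, 13.31 and 13.17, was also higher in NCSC without reaching a call (adjusted p = 0.0714). Psma5 had 13.83, 13.71 and 13.77 in MSC and 13.93, 14.14 and 14.06 in NCSC, and its second probe set differed by 0.34 (adjusted p = 0.0538). Psma1, at 14.02, 13.78 and 14.02 against 14.11, 14.20 and 14.07, was not called (0.18, 95% interval -0.05 to 0.42), and its 2 dim probe sets differed by 0.31 and -0.10, also without a call.

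The calls of Psma3 and Psma5 were lost without MSC 1, MSC 2, MSC 3 or NCSC 2 (adjusted p between 0.00697 and 0.103 and between 0.011 and 0.388 over all settings), and that of Psma7 without MSC 1 (0.00463 to 0.938).

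In the beta ring 1 of the 3 catalytic subunits was called, and differences between them were not tested. Psmb5, Psmb6 and Psmb7 carry the chymotrypsin-like, caspase-like and trypsin-like sites. Psmb5 was at 13.17, 12.85 and 13.18 in MSC and 13.08, 13.05 and 13.34 in NCSC. Its groups overlapped, and the difference was 0.09 (95% interval -0.23 to 0.41). Psmb6 was at 13.44, 13.36 and 13.51 against 13.03, 13.23 and 13.36, a difference of -0.23 (-0.49 to 0.04) that was not called, although it was called without NCSC 3 (adjusted p between 0.00752 and 0.291 over all settings). Psmb7 rose: its intensities were 11.01, 10.68 and 11.10 in MSC and 11.26, 11.32 and 11.44 in NCSC, a difference of 0.41 ± 0.13 (SE, limma adjusted p = 0.035), with MSC 2 well below the other MSC arrays. That call was lost without MSC 1 or any NCSC array, within a range of 0.0235 to 0.586.

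Of the structural beta subunits, Psmb2 and Psmb3 fell and Psmb1 and Psmb4 were not called. Psmb2 was at 11.84, 11.53 and 11.73 in MSC and 11.15, 11.34 and 11.34 in NCSC, so that the groups were apart by the gap between MSC 2 and the NCSC arrays (-0.43 ± 0.11, adjusted p = 0.0166, limma). Psmb3 was at 13.28, 13.23 and 13.33 against 12.75, 13.02 and 13.02 (-0.35 ± 0.10, adjusted p = 0.0229, limma), and its second probe set, 12.75, 12.49 and 12.79 against 12.41, 12.43 and 12.57, was lower in mean but not called (-0.20, adjusted p = 0.162). Both calls were lost without MSC 1, MSC 3 or NCSC 1, with adjusted p of 0.00125 to 0.871 for Psmb2 and 0.0033 to 0.0792 for Psmb3 over all settings.

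Psmb1 was at 13.40, 13.34 and 13.38 in MSC and 13.21, 13.43 and 13.44 in NCSC, a difference of -0.01 (95% interval -0.24 to 0.21), and its other kept probe set was at 5.30 on 5 arrays and 5.80 on NCSC 3. Psmb4 differed by 0.02 (-0.18 to 0.21). By these brightest probe sets the groups overlapped for both genes. In the other probe set of Psmb4, at 14.10, 13.99 and 14.07 against 14.19, 14.17 and 14.25, they did not overlap. That probe set was higher by 0.14 without a call (limma adjusted p = 0.158, every probe set tested).

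The 6 ATPases of the base, which form the unfolding ring, were split as well, with Psmc1 and Psmc2 higher, Psmc5 lower and 3 not called. Psmc1 was at 12.02, 12.03 and 12.14 in MSC and 12.67, 12.69 and 12.54 in NCSC, well apart, and rose by 0.57 ± 0.085 (SE, limma adjusted p = 0.00152). Psmc2 rose by 0.37 ± 0.084 (adjusted p = 0.00891), and its second probe set by 0.49. Psmc5 was at 12.96, 12.93 and 12.88 against 12.50, 12.49 and 12.73, with NCSC 3 nearest to MSC, and fell by 0.35 ± 0.095 (adjusted p = 0.0173). The Psmc5 call was lost without MSC 1, NCSC 1 or NCSC 2 (0.000912 to 0.0627 over all settings).

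Psmc4 and Psmc6 were not called by their brightest probe set but were by a dimmer one. The brightest of Psmc4 was at 14.04, 14.20 and 14.33 in MSC and 14.15, 14.20 and 14.48 in NCSC, where the groups overlapped. The other was at 12.06, 11.98 and 12.03 against 12.38, 12.31 and 12.45, without overlap, and differed by 0.36 (limma adjusted p = 0.00954, every probe set tested). For Psmc6 the brightest was at 13.53, 13.24 and 13.51 against 13.30, 13.56 and 13.52, again with overlap. A second one, at 11.73, 11.57 and 11.75 against 12.07, 12.11 and 12.11, differed by 0.42 (adjusted p = 0.00624), and the dimmest by 0.31 (adjusted p = 0.0964). Psmc3 differed by 0.11 (95% interval -0.07 to 0.29) and was not called.

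The other subunits of the base were all higher in mean, and one was called. Psmd4, a ubiquitin receptor, rose by 0.30 ± 0.084 (SE, adjusted p = 0.0205, limma), and its second probe set by 0.39. The call of Psmd4 was lost without MSC 1, MSC 3 or NCSC 2 (0.00315 to 0.488 over all settings). The scaffold subunits Psmd1 (0.28, 95% interval 0.02 to 0.54) and Psmd2 (0.26, 0.03 to 0.50) had adjusted p of 0.0585 and 0.0501, and for both the arrays of the cell types did not overlap. Psmd2 passed the threshold in 7 of the 18 settings, the trended fit (as Psmd1 did) and quantile normalization among them.

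The lid held the largest fall of all members. Of its 8 genes among the members 3 were called lower in NCSC and none was called higher (29.1% and 35% of all tested genes). Psmd7, a structural partner of the deubiquitinase Psmd14, was at 12.84, 12.64 and 12.98 in MSC and 11.54, 11.70 and 11.63 in NCSC. The NCSC arrays lay close together and far below MSC, a difference of -1.20 ± 0.11 (SE, limma adjusted p = 0.000196), or 2.3-fold. A second, dimmer probe set of Psmd7 was at 6.78, 6.56 and 7.17 against 6.10, 6.42 and 6.29 and was also lower (-0.57, adjusted p = 0.0325).

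Psmd3 had the second largest fall of the lid. Its intensities were 10.86, 10.53 and 10.65 in MSC and 9.87, 9.73 and 10.37 in NCSC, with NCSC 3 close to the MSC arrays, a difference of -0.69 ± 0.19 (limma adjusted p = 0.0188). Its call was lost without MSC 1, MSC 3, NCSC 1 or NCSC 2 (0.000419 to 0.0758 over all settings). Psmd8, at 12.84, 12.84 and 12.83 against 12.59, 12.65 and 12.48, fell by 0.26 ± 0.079 (adjusted p = 0.026), a call lost without MSC 1, MSC 3 or NCSC 1 (0.000986 to 0.0795).

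Psmd14, the deubiquitinase itself, differed by 0.05 (95% interval -0.20 to 0.30) where its partner Psmd7 had fallen. Psmd6 (0.11) and Psmd13 (0.17) were not called either. Psmd12 and Psmd11 were at -0.20 and -0.19 without a call. Psmd11, at 13.19, 12.94 and 13.12 against 12.71, 12.85 and 13.11, had 4 kept probe sets, all lower in mean, with differences of -0.41 to -0.16, of which the dimmest was called (9.79, 9.58 and 10.01 against 9.22, 9.44 and 9.50, adjusted p = 0.0468). In Psmd11, Psmd12 and Psmb6 it was again NCSC 3 that reached the MSC values.

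The chaperones that assemble the base, which are not part of the finished particle, were all higher in mean. Psmd9 had the largest rise of all members, from 8.83, 8.62 and 8.84 in MSC to 9.40, 9.60 and 9.65 in NCSC. The groups were wide apart, by 0.79 ± 0.11 (SE, limma adjusted p = 0.00116). Psmd10, also known as gankyrin, was at 11.76, 11.83 and 11.68 against 12.07, 12.37 and 11.92, without overlap, and was not called (0.36, 95% interval 0.04 to 0.68, adjusted p = 0.0525). It was called in 6 settings, among them without NCSC 3 (0.00508 to 0.148 over all settings). Psmd5 differed by 0.17 (-0.03 to 0.38).

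Among the proteins that bind the ends of the core in place of the regulatory particle, only Psmf1, an inhibitor of the isolated core, was called. It was at 9.69, 9.62 and 9.66 in MSC and 10.11, 10.19 and 10.49 in NCSC and rose by 0.61 ± 0.12 (SE, limma adjusted p = 0.00445). Its probe sets disagreed: a second one rose by 0.83 (7.45, 7.004 and 7.39 against 8.16, 7.96 and 8.21), a dim one differed by 0.38 without a call, and another was at 8.75, 8.48 and 8.78 against 8.68, 8.44 and 8.62 (-0.09, adjusted p = 0.544). The activators Psme1 (0.21, 95% interval 0.02 to 0.41), Psme4 (0.25, -0.04 to 0.54) and the nuclear activator Psme3 (-0.30, -0.70 to 0.10) were not called, and Psme1 was without NCSC 3 (0.00618 to 0.282 over all settings).

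Set side by side, the core had 5 genes called higher and 4 called lower of 14, with a median difference of 0.054. The base and lid together had 3 called higher and 4 called lower of 17, with a median of 0.09. In all, 64.3% of the core genes and 41.2% of those of base and lid were called. Of all tested genes 64.1% were called, 35% higher and 29.1% lower. The spread of the differences (SD over genes) was 0.37 and 0.43. The difference between core and regulatory particle was not tested.

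The differences were then set against the chromosome of each gene. The 38 genes lie on 15 chromosomes. The median difference of the other tested genes ran from -0.94 on chromosome 8 and -0.65 on chromosome 13 to 0.47 on chromosome 1 and 0.48 on chromosome 5, so that 88.6% of the 568 other tested genes of chromosome 8 were lower in NCSC and 81.2% of the 671 of chromosome 5 were higher. Most proteasome genes shared the sign of their chromosome. Of the 38 genes 35 (92.1%) had the sign of their chromosome's median, against 67.5% of the 10432 other tested genes. So did 17 of the 18 called genes (94.4%, against 73.4% of the other called genes). The members' differences spread less than those of the other tested genes (SD 0.41 against 1.85). An equal shift then sets the sign of more of them, so these shares do not compare how far each follows its chromosome.

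**Figure D2:**
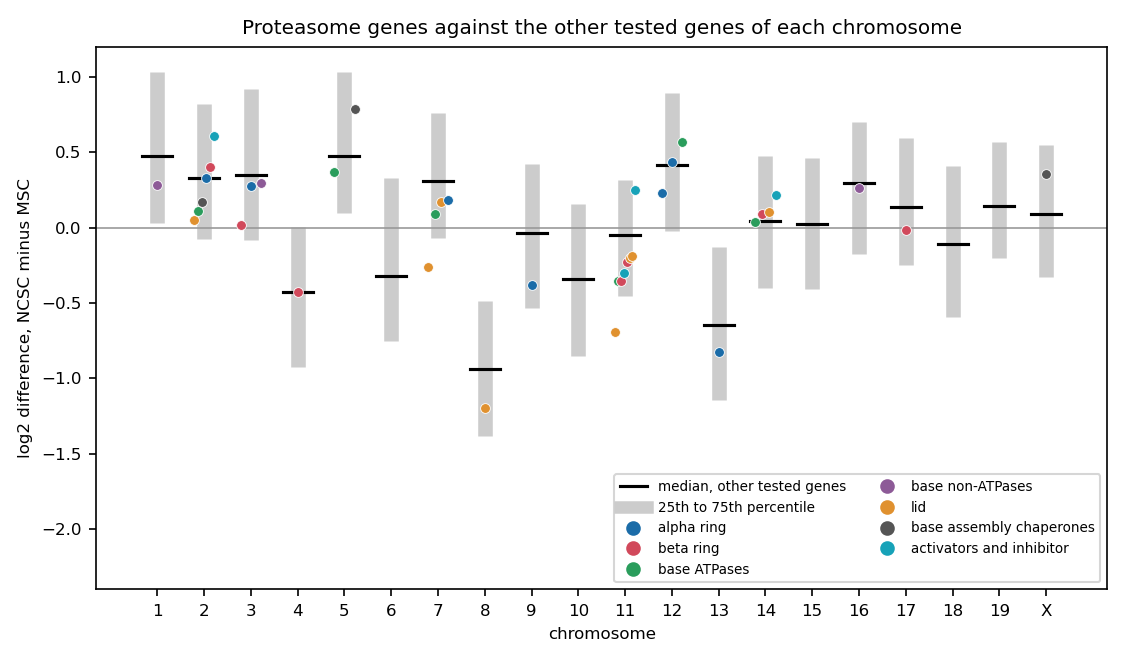
Log2 difference (NCSC minus MSC) by chromosome. Black lines are medians and grey bars the 25th to 75th percentiles of the other tested genes, and points are proteasome genes coloured by role. The Psmd7 point on chromosome 8 and the Psma2 point on chromosome 13 sit low with their chromosomes, and the points on chromosomes 2, 3, 5 and 12 sit above 0 with theirs.

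Psmd7 (-1.20) and Psma2 (-0.83), the members with the largest falls, lie on chromosomes 8 and 13. Psmd3, next in size (-0.69), lies on chromosome 11, whose median was -0.05, and Psmb2 (-0.43) on chromosome 4, whose median was -0.43. All 3 genes on chromosome 12 (Psma3, Psma6 and Psmc1) and both on chromosome 5 (Psmc2 and Psmd9) were called higher. Of the other tested genes, 55.7% on chromosome 12 and 60.1% on chromosome 5 were called higher. On chromosome 2, with a median of 0.33, 3 of 6 were called higher (Psma7, Psmb7 and Psmf1) and none lower. Of its other tested genes 49.6% were called higher and 13.1% lower. On chromosome 3, with a median of 0.35, 2 of 3 were called higher (Psma5 and Psmd4), against 50.7% of its other tested genes. Across the 38 genes the difference and the chromosome median correlated at Pearson r = 0.85 and Spearman rho = 0.79, or r = 0.79 without Psmd7. For the other tested genes these were 0.22 and 0.40. The members' differences spread less than those of the other tested genes (SD 0.41 against 1.85). An equal shift then gives a higher r, so r does not compare how far each follows its chromosome. The correlations are descriptions over genes that share the same 6 arrays, and genes of a chromosome share its median.

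**Figure D3:**
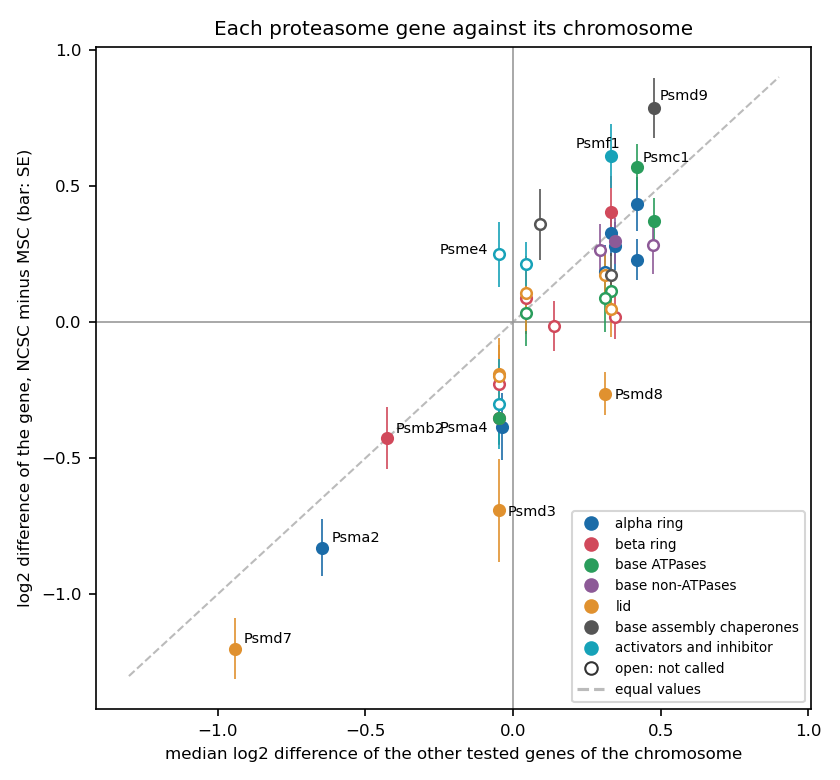
Difference of each of the 38 genes (log2, bar is the SE) against the median difference of the other tested genes of its chromosome, coloured by role, with open symbols for genes not called and a dashed line where both are equal. The points lie along the dashed line (Pearson r = 0.85), with Psmd3 and Psmd8 furthest below it and Psmd9 and Psme4 furthest above it.

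Subtracting the chromosome median from each gene's difference lowered the variance over the 38 genes by 71.4%, and over the other tested genes by 4.79%. The SD went from 0.41 to 0.22 for the members and from 1.85 to 1.80 for the other genes. As the members spread far less to begin with, an equal shift takes a larger share of their variance. The median absolute difference, which extreme genes move less, went from 0.27 to 0.18 for the members and from 0.55 to 0.45 for the other tested genes. The sign was also shared where a chromosome hardly shifted: by a split at 0.1, chosen after the values were seen, 13 of 14 members on the 4 chromosomes with medians nearer to 0 had their chromosome's sign (53.8% of the other genes did), and 22 of 24 on the remaining 11 chromosomes (72% of the other genes). With quantile normalization the share of all members with the sign was 81.6%, and it was 81.6% to 94.7% when single arrays were left out.

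When the median of each chromosome was removed from every array before the fit, 8 of the 38 members were called (59.1% of all tested genes were), 1 higher and 7 lower (30.1% and 29% of all tested genes). Of the 18 calls 6 were kept, all with the same sign: Psmd9 higher, and Psma4, Psmb3, Psmc5, Psmd3 and Psmd8 lower. Psmd7 was then at -0.25 (limma adjusted p = 0.0882, 1.76e-05 to 0.0882 over all settings) and Psma2 at -0.20 (0.139, 0.000111 to 0.139). Psmc1 was at 0.13 (0.208, 0.000198 to 0.208), Psmf1 at 0.29 (0.104, 0.000602 to 0.104), and Psma6 and Psmc2, at -0.0020 and -0.14, had changed sign without a call. Psmb4 and Psmd14, not called before, were then called lower, at -0.36 and -0.27.

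**Figure D4:**
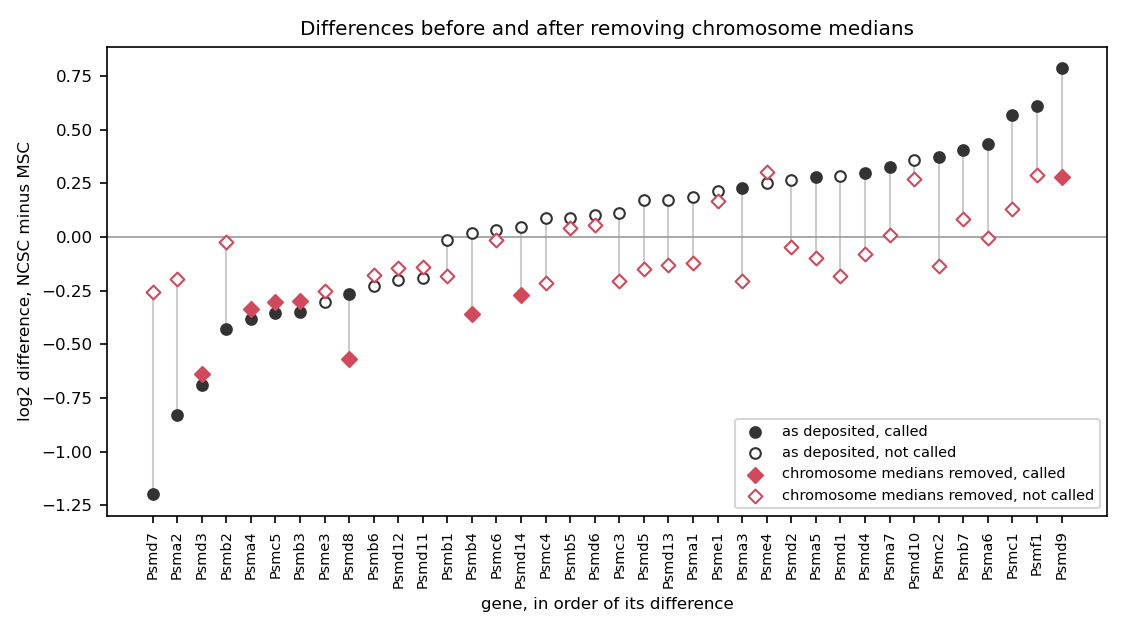
Log2 difference of each gene (NCSC minus MSC), in order, before (circles) and after (diamonds) the median of its chromosome was removed on each array. Filled symbols are called at an adjusted p under 0.05, and open symbols are not. Psmd7, Psma2 and Psmb2 on the left move up and lose their fill, most genes on the right move down, and Psmd9 keeps its fill at 0.28.

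By sign the exceptions to the chromosome pattern were few. By size more members departed from it: with chromosome medians removed 8 of the 38 were called (59.1% of all tested genes were). Among these, Psmd3, Psma4, Psmb3 and Psmc5 had their chromosome's sign but lay well below its median. Psmd8 fell on chromosome 7, where 69.7% of the other tested genes were higher and the median was 0.31, and with that median removed it was at -0.57 (limma adjusted p = 0.000986). Psme4 and Psmb1 were the other members with the opposite sign, neither of them called. Psmd9 remained higher with its chromosome's median removed, at 0.28 (adjusted p = 0.0456, 0.000287 to 0.0456 over all settings).

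Chromosome 11 held 8 members, the most of any chromosome, and its median was only -0.05. Psmb3, Psmc5 and Psmd3 were called lower there (28.6% of that chromosome's other tested genes were). Lower in mean were 4 more, and Psme4 was higher in mean, with a median of -0.26 for the 8. With the chromosome's median removed Psmb3, Psmc5 and Psmd3 were still called lower, at -0.30, -0.30 and -0.64. Psme4 lay at place 113 in the order of tested genes along this chromosome, apart from the other 7, which ran from Psmb6 at place 349 to Psmd12 at place 722, and the median difference of its 40 nearest tested genes was 0.10, against -0.09 to -0.01 for the 7. By these neighbours in place of whole chromosomes, 34 of the 38 members (89.5%) had the shared sign, against 67.3% of the other tested genes. The smaller spread of the members limits that comparison too.

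Relative to their chromosomes the members leaned towards MSC: 28 of 38 lay below and 10 above their chromosome's median, with a median gap of -0.14. Single arrays moved with some chromosomes too. NCSC 3 exceeded the mean of NCSC 1 and NCSC 2 by a median of 0.23 over the other genes of chromosome 9 and 0.17 over those of chromosome 14. Psma4 on chromosome 9 exceeded it by 0.23, and on chromosome 14 Psmd6 by 0.36, Psmb5 by 0.28 and Psmc6 by 0.089, while Psme1 was lower by that measure (-0.12). Over all members 20 of 38 shared the sign of their chromosome in this comparison of arrays. For NCSC 3 the medians of chromosomes 4 and 5 were 0, so Psmb2, Psmc2 and Psmd9 could not share a sign. When MSC 2 was set against the mean of MSC 1 and MSC 3, 30 of 38 did. MSC 2 was lower by that measure in the median of the members (-0.11) and of all tested genes (-0.030), which alone can raise that count. The share of the other tested genes is not given here.

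Genes that work with the proteasome were counted by list, without a test against the members. Here and in the lists that follow, higher and lower count calls at an adjusted p under 0.05 (35% and 29.1% of all tested genes). The chromosome's sign was shared by 67.5% of the other tested genes, and 59.1% of all tested genes were called with chromosome medians removed. Of the 5 assembly chaperones of the core, Pomp (0.58 ± 0.083, SE) and Psmg3 (0.38 ± 0.13), both on chromosome 5, were higher, Psmg4 on chromosome 13 was lower (-0.60 ± 0.19), and none of the 5 was called with chromosome medians removed. Of 10 ubiquitin receptors, shuttles and other associated proteins 1 was higher and 3 lower, and all 10 had their chromosome's sign. With chromosome medians removed 3 of the 10 were called, Rad23b lower and Ube3c and Ubqln1 higher. Ubqln1 was then at 0.50, against -0.13 before. The ubiquitin ligase Ube3c on chromosome 5 rose by 0.74, and the shuttle Rad23b (-0.70) and the proteasome adaptor Ecpas (-0.66), both on chromosome 4, fell. Sem1 on chromosome 6, whose symbol lies outside the rule for members, was the other gene called lower (-0.46, chromosome median -0.32). Of 8 members of the p97 complex, which extracts ubiquitin-tagged proteins, 3 were higher and 3 lower. Its ATPase Vcp on chromosome 4 fell by 0.39 ± 0.075, and all 8 had their chromosome's sign. With chromosome medians removed 1 of the 8, Faf1, was called, at -0.38. Of the enzymes that activate ubiquitin, Uba6 was analysed and was not called (-0.05, 95% interval -0.31 to 0.21). With chromosome medians removed Uba6 was called lower, at -0.56.

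The COP9 signalosome and the chaperonin, also complexes of many subunits, served for comparison. In the COP9 signalosome, which is built like the lid, 5 of 9 genes were called higher and 1 lower, with a median of 0.28. All 9 were on the side of their chromosome, and 1 was called with chromosome medians removed. In the chaperonin, which folds newly made proteins, none of 8 was called higher and 5 were called lower, with a median of -0.31. Of the 3 not called, Cct3 and Cct6a were higher in mean (both 0.19) and Cct8 was lower (-0.05). On the side of their chromosome were 5 of 8, against 67.5% of the other tested genes, and 5 were called with the medians removed. The chaperonin subunit Tcp1 on chromosome 17 fell by 0.41 ± 0.091, against a chromosome median of 0.14.

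Of the genes that raise proteasome transcription, Nfe2l1, which encodes Nrf1, differed by -0.06 (95% interval -0.30 to 0.18) and its relative Nfe2l2 by 0.27 (0.01 to 0.52), neither called. Ngly1, the enzyme that trims sugars from Nrf1, fell by 0.40 ± 0.084 (SE, limma adjusted p = 0.00639), and the small partner factor Maff by 1.05 ± 0.21 (adjusted p = 0.00501), both against their chromosome's sign, on chromosomes whose medians were 0.04 and 0.03. Of the 6 tested genes of this list none was called higher and 2 were called lower (35% and 29.1% of all tested genes). Mafg, like Nfe2l2, was higher in mean without a call (0.26), and Mafk was lower in mean (-0.04).

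Of the inducible subunits Psmb10 was called lower, and Psmb8 and Psmb9 stood out on 1 array. Psmb8 was at 7.84, 9.75 and 7.67 in MSC and 7.49, 7.70 and 7.71 in NCSC, and Psmb9, not tested for its low values, at 3.26, 5.47 and 3.67 against 2.77, 2.77 and 2.85. MSC 2 was thus far above the other 5 arrays for both, and Psmb8 was not called (-0.78, 95% interval -2.11 to 0.54). Psmb10 was at 10.37, 10.65 and 10.36 in MSC and 9.84, 9.97 and 9.77 in NCSC and fell by 0.60 ± 0.11 (SE, limma adjusted p = 0.00434). It lies on chromosome 8 like Psmd7, and with that chromosome's median removed it was called higher, at 0.35 (adjusted p = 0.045).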

How the data were processed

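The values deposited by the authors are linear intensities, 1 per probe set and array; the submitters' processing notes name GCRMA, which corrects background, normalizes arrays and summarises probes; the version and genome build are not given in the sources used here. They ran from 4.36 to 116597 and were taken to log2 (lowest value 2.12). Depth has no equivalent on arrays, and 3 arrays a group limit the precision. Probe sets were named from GEO's platform annotation and placed on chromosomes through RefSeq (GRCm38.p6), for 34741 of 34945. A probe set was kept when above 4 on the log2 scale on at least 3 of 6 arrays, and each gene was represented by its brightest kept one (67 of the 88 member probe sets were kept). Differences were fitted over 10501 genes with limma 3.58.1 in R 4.3.3 (two-sided, Benjamini-Hochberg) and tested on simulated data. Chromosome medians leave out the members and were removed from chromosomes with at least 20 such genes.

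Members and lists were chosen with earlier results of these data known. All members may be named, with values on every array for the called member changed at least 2-fold, the 4 largest called differences each way and genes whose probe sets disagree in call or sign; those of Psmb5, Psmb6, Psmb7, Psmc5, Psmd8 and Psmd10 were added after their values were seen. Alternatives changed the filter, floor, probe set rule, variance model, array weights, normalization, pseudocount and arrays.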

Additional observations from a re-analysis of the deposited data

How the results depend on the processing

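Over 18 settings, 7 of the 18 calls were kept in all but the removal of chromosome medians, and 1 of these, Psmd9, in that as well. With chromosome medians removed, which takes away by construction what a gene shares with its chromosome, the members called were 8 (1 higher), the median difference was -0.14, and the sign turned for 15 members, all from higher to lower. Of these, 7 were called before or after: Psma3 (-0.21), Psma5 (-0.098), Psma6 (-0.0020), Psmb4 (-0.36), Psmc2 (-0.14), Psmd4 (-0.078) and Psmd14 (-0.27). Leaving out 1 array at a time gave 7 to 22 called members, 5 to 12 higher and 2 to 10 lower. These fits have fewer arrays, and their counts over all tested genes are not given here. Both groups number their replicates alike, but deviations of same-numbered arrays correlated at -0.098, 0.062 and 0.073, so the numbers were not taken to pair the arrays; with the replicate block 14 members were called, 5 of them lower. Testing every kept probe set called 11211 of 18640. Without MSC 2 and NCSC 3 together 23 members were called, and 26 with array weights. For these fits, and for that with the replicate block, counts over all tested genes are not given here either. Whether the calls of all tested genes moved alike was not tested. Of the 20 members not called, 9 were called in none of the settings. The limit of 4 sets which dim probe sets count.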

Other observations

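Other motifs were counted in the same 250 bases before the gene start, on both strands. The ETS site CCGGAAG was present in 11 of the 32 proteasome genes with a promoter entry (34.4%), against 16.6% of the other tested genes, and the nuclear respiratory factor site in 6 (18.8%), against 10.1%. The CCAAT box (CCAAT) was present in 12 (37.5%), against 41%. Of the 11 genes with the ETS site 4 were called higher and none lower in NCSC (35% and 29.1% of all tested genes), with a median difference of 0.25. Of the 21 without it 5 were called higher and 5 lower, with a median of 0.17. The 4 called genes with the ETS site were Psma6 and Psmc1 on chromosome 12, Psmc2 on chromosome 5 and Psmd4 on chromosome 3. These chromosomes had medians of 0.42, 0.48 and 0.35, and with chromosome medians removed none of the 4 was called. Of the 6 genes with the nuclear respiratory factor site 3 were called lower (Psma2, Psma4 and Psmc5) and 1 higher (Psma3). No test was made of these counts.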
